A study of Homo sapiens with 9 samples.

Results

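The genes described here encode the Fanconi anaemia pathway and the crosslink repair factors that act with it. They were taken by name, with no measured value in the rule: 11 genes of the core complex, 3 of the FANCD2-FANCI complex and its conjugating enzyme, 2 of the deubiquitinase, 2 of crosslink sensing and replication protein A (RPA) clearance, 6 of the nucleases, 6 of the homologous recombination arm and 3 of translesion synthesis. These are 33 of the 61155 gene symbols in the count tables, and all 33 passed the filter on low counts that left 17759 genes for testing.

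An interstrand crosslink joins both strands of DNA and stops replication forks. In the Fanconi anaemia pathway a multi-subunit ubiquitin ligase, the core complex, recognises the stalled fork and attaches a single ubiquitin to FANCD2 and its partner FANCI, and nucleases, bypass polymerases and homologous recombination then complete the repair. Inherited loss of many of these genes, though not of all, causes bone marrow failure and cancer predisposition, and several of them are breast cancer susceptibility genes.

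RNA was sequenced from MDA-MB-231, an established human breast cancer cell line of basal-like type. The KO1 and KO2 groups are FBXL12-KO clones #1 and #2, each grown from 1 cell in which the F-box gene FBXL12 had been knocked out, and the WT group is FBXL12-WT cells that received a scrambled control guide RNA. Each group has 3 libraries, and no drug or crosslinking agent is named for any of them. According to the study's title, the FANCD2 protein is degraded through FBXL12, so the comparison asks what the mRNA of FANCD2 and its pathway did without FBXL12. The sources used here give neither the guide site nor the means of delivering Cas9, nor whether the control cells were cloned. The knockout was sampled in 2 clones against 1 control population, and both clones were set against the same WT libraries. Whether libraries of a group were grown as separate cultures is not labelled, so a p-value here measures only their spread, perhaps of a technical kind.

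Total counts ran from 52427841 to 97243363 per library, and the counts of the 33 genes ran from 147 (FANCF in WT replicate 3) to 17378 (FANCI in WT replicate 1) per library. Levels are given as CPM, counts scaled to a common library total, and changes are log2 fold changes with standard errors. A gene was called changed at an adjusted p under 0.05 over all tested genes. FBXL12 itself was at 9.56, 9.95 and 9.40 CPM in KO1, 6.14, 6.36 and 5.33 CPM in KO2 and 22.2, 23.3 and 21.4 CPM in WT, lower in every knockout library than in any WT library. It fell by 1.21 ± 0.08 (adjusted p = 2.65e-08) in KO1 and by 1.91 ± 0.08 (adjusted p = 7.29e-11) in KO2. Most genes next to FBXL12 on the chromosome were also lower, by less, as described below. Counts over a whole gene do not show the edited sequence. The mitochondrial share of counts was 3.28% to 3.97% in KO1, 4.49% to 5.39% in KO2 and 3.52% to 3.83% in WT, and its part in the results was not tested. Of the cell line's markers VIM, CD44, ZEB1 and AXL were abundant, with list sums of 5915 to 6078 CPM in KO1, 7173 to 7261 CPM in KO2 and 5411 to 5826 CPM in WT, while SPARC stayed at or below 1.03 CPM. The hormone receptor gene PGR was at 0 in every library and ESR1 at or below 0.154 CPM, and the 8 luminal markers summed to 777 to 887 CPM in KO1, 816 to 880 CPM in KO2 and 912 to 1029 CPM in WT. The 7 fibroblast and endothelial markers summed to at most 5.46 CPM, and the 6 leukocyte markers to at most 1.23 CPM, in any library.

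Promoter sequences of these genes are shown first, since the pathway is known as a set of genes induced before S phase. Windows from 250 bases before to 50 bases after the start were taken from RefSeq (GRCh38.p14), which held 32 of the 33 genes. The E2F sites TTTCCCGC and TTTGGCGC were searched on both strands. Each gene had only the window of its listed RefSeq start, and its other starts were not searched. The BRCA1 window (chr17:43170278-43170577, minus strand) lies outside the gene as annotated in GENCODE, which ends at 43170245. The DCLRE1B window (chr1:113904369-113904668, plus strand) ends before that annotated gene begins at 113905141. The annotated starts of both genes were thus not searched. An E2F site was present in 4 of the 32 windows, each time as TTTCCCGC, against 3.678% of the 11255 windows of tested genes. The 4 windows follow 5′ to 3′ on the strand of the gene, with the site in capitals, which reads GCGGGAAA where it lies on the opposite strand. They cover chr3:10026187-10026486 (plus strand), chr9:95317660-95317959 (minus), chr19:4909251-4909550 (plus) and chr7:152676092-152676391 (minus), and the sites begin 2, 46 and 14 bases before the start in FANCD2, FANCC and UHRF1 and 21 bases after it in XRCC2.
FANCD2: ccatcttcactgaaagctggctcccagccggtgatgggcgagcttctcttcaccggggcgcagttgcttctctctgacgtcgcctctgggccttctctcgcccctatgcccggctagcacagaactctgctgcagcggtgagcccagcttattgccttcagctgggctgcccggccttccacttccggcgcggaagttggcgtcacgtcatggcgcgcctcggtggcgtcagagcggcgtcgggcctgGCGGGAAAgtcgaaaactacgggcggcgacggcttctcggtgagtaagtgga
FANCC: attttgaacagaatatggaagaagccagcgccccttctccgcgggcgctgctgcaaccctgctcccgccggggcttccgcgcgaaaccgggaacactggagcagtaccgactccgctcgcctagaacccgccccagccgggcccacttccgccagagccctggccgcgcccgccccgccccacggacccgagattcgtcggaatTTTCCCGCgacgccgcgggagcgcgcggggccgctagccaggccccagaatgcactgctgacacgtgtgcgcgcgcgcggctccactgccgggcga
UHRF1: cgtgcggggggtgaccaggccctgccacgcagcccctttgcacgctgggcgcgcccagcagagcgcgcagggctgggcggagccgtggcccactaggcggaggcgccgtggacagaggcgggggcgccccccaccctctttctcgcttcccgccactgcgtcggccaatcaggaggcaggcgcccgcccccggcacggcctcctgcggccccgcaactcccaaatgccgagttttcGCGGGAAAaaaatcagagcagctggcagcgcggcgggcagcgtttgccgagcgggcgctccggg
XRCC2: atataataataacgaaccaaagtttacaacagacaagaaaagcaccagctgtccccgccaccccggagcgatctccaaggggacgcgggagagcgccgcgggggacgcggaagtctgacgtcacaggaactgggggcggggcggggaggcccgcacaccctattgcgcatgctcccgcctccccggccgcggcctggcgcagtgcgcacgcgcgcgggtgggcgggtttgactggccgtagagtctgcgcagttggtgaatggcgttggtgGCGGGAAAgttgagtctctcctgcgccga
The 4 genes with this site did not share a direction. Their log2 changes in KO1 were 0.18 for FANCD2, -0.25 for FANCC, -0.40 for UHRF1 and -0.15 for XRCC2, the last not past the threshold. In KO2 they were -0.25 for FANCD2, 0.38 for FANCC, -0.09 for UHRF1 and -0.42 for XRCC2, with UHRF1 not past the threshold.

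The promoter of FANCF is shown because FANCF had the greatest rise of the 33 genes in both clones. It covers chr11:22625774-22626073 on the minus strand, and its 2 CCAAT boxes, at 92 and 52 bases before the start, are in capitals.
FANCF: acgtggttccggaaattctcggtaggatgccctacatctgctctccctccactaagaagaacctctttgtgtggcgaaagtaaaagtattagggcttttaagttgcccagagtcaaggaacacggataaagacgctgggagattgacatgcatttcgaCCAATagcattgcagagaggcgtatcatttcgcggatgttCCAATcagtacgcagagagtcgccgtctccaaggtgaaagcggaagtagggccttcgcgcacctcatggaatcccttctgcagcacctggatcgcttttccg
CCAAT was found on either strand in 10 of the 32 windows, against 36.446% of the windows of tested genes. The cell cycle element TTTGAA was found in 4 of the 32, in UBE2T, FANCC, BRIP1 and FAAP24, against 10.013%. A match describes these letters in these windows and shows no binding. A window without a match does not show that other starts of the gene lack the letters.

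In KO1, 16 of the 33 genes were called changed, 5 up and 11 down. Of all tested genes 34.8% were called in KO1, 18.0% up and 16.8% down. In KO2, 22 of the 33 were called, 10 up and 12 down, against 49.4% of all tested genes, 24.7% up and 24.7% down. The clones differed from each other in 25 of the 33 genes, 12 higher and 13 lower in KO1 than in KO2, against 48.9% of all tested genes, 23.9% higher and 24.9% lower. The shares of the 33 that were called lay above these backgrounds, a difference that was not tested. The backgrounds include genes at lower counts than any of the 33, where a change is harder to call. The sizes were small. Over all 33 genes, called or not, the median absolute change was 0.15 in KO1 and 0.21 in KO2, below the 0.21 and 0.29 of all tested genes. The median absolute change of the called pathway genes was 0.27 in KO1 and 0.35 in KO2, against 0.35 and 0.48 for all called genes, and none of the 33 changed by 1 or more on the log2 scale. Their median change was -0.03 in KO1 and -0.04 in KO2, against -0.00 and -0.01 for all tested genes. After removal of a trend with GC content from each library, 19 of the 33 were called in KO1 (39.1% of all tested genes), 23 in KO2 (54.6%) and 27 between the clones (56.2%). Fewer cells making a transcript and less of it per cell cannot be told apart in bulk RNA.

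**Figure D1:**
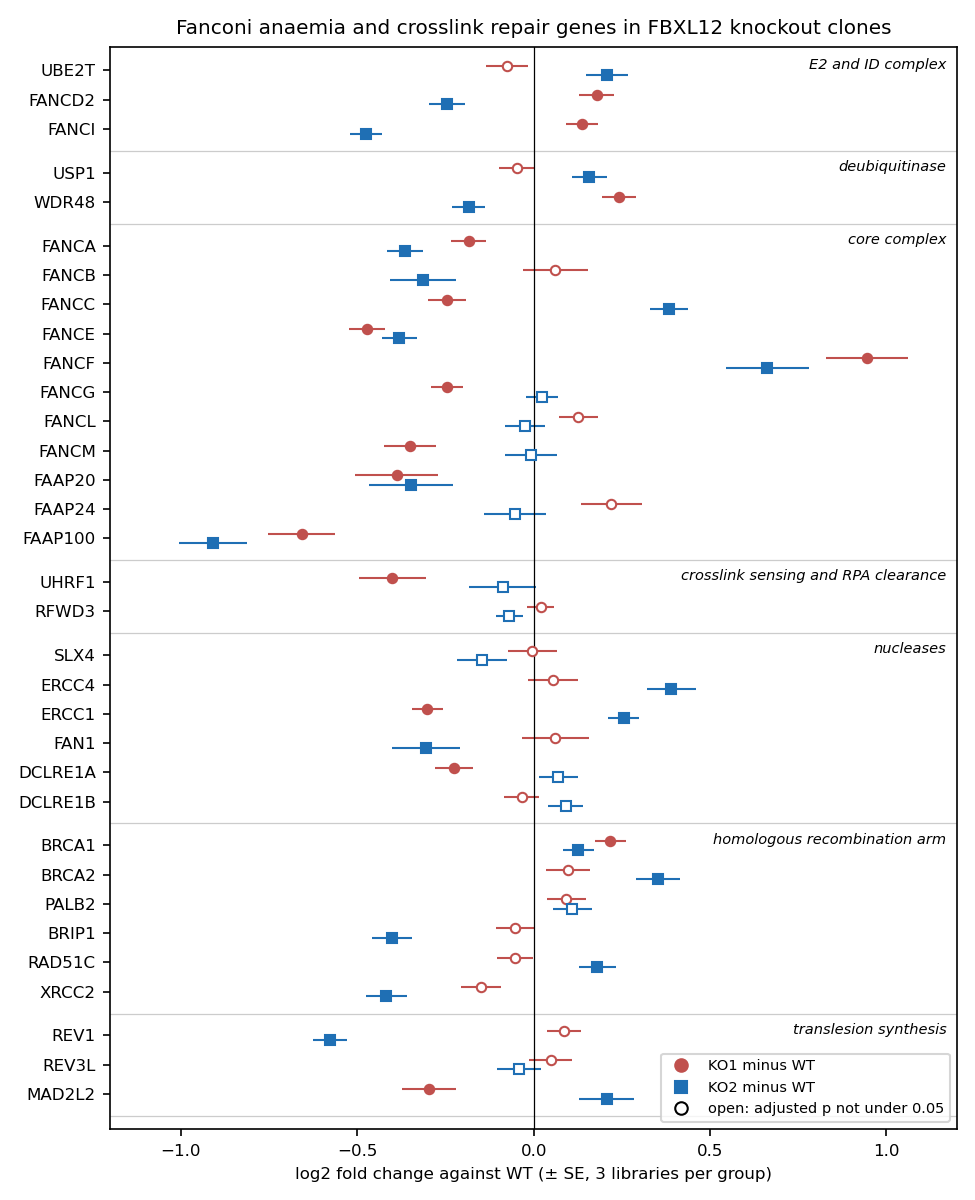
Log2 fold change of each of the 33 genes in KO1 (circles) and KO2 (squares) against WT, grouped by role, with standard errors of a fit to 3 libraries per group. Filled symbols passed the adjusted p threshold: FANCF lies farthest to the right in both clones and FAAP100 farthest to the left, and FANCD2, FANCI, WDR48, FANCC, ERCC1 and MAD2L2 lie on opposite sides of 0 in the clones.

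FANCD2 and FANCI, the ubiquitinated pair at the centre of the pathway, were higher than WT in KO1 and lower than WT in KO2. FANCD2 was at 78.8, 78.4 and 75.0 CPM in KO1, 54.9, 57.1 and 61.0 CPM in KO2 and 71.1, 66.4 and 67.7 CPM in WT. Every KO1 library lay above every WT library and every KO2 library below. FANCD2 rose by 0.18 ± 0.05 (adjusted p = 0.0116) in KO1 and fell by 0.25 ± 0.05 (adjusted p = 0.000794) in KO2, and KO1 exceeded KO2 by 0.42 ± 0.05 (adjusted p = 3.68e-06). The mean over both clones was -0.03 ± 0.04 (interval -0.13 to 0.06, adjusted p = 0.569). FANCI, which clamps onto DNA together with FANCD2, was at 180.5, 193 and 186 CPM in KO1, 117, 122 and 127 CPM in KO2 and 177, 167 and 165 CPM in WT, and the groups did not overlap. It rose by 0.14 ± 0.04 (adjusted p = 0.0265) in KO1 and fell by 0.48 ± 0.05 (adjusted p = 4.6e-07) in KO2. The KO1 rise was not past the threshold in 4 fits that left out a library, at 0.14 without WT replicate 2 (adjusted p = 0.0679), 0.13 without WT replicate 3 (adjusted p = 0.0819), 0.11 without KO1 replicate 2 (adjusted p = 0.0732) and 0.15 without KO1 replicate 3 (adjusted p = 0.0508), and was 0.08 after removal of the GC trend (adjusted p = 0.0383). Reads of FANCI and of POLG, which overlap over 5.9% of the exon bases of FANCI on opposite strands, may not be fully separated, since no source used here gives the strand setting of the counts. POLG averaged 78.1 CPM in KO1, 55.0 CPM in KO2 and 89.2 CPM in WT. A FANCD2 pseudogene in the tables, FANCD2P2, held 52 counts over all libraries.

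UBE2T, the conjugating enzyme that delivers ubiquitin to FANCD2, went the other way in KO2. It was at 56.2, 63.2 and 58.1 CPM in KO1, 74.9, 72.0 and 69.0 CPM in KO2 and 66.4, 62.6 and 57.9 CPM in WT. All KO2 libraries lay above the other 6, and KO1 overlapped WT. UBE2T rose by 0.21 ± 0.06 (adjusted p = 0.00903) in KO2 and was -0.07 ± 0.06 (interval -0.20 to 0.05, adjusted p = 0.358) in KO1. The KO2 call was lost at 0.16 without WT replicate 3 (adjusted p = 0.0632) and 0.17 without KO2 replicate 1 (adjusted p = 0.0575). Once the GC trend was removed UBE2T was also called in KO1, at -0.16 (adjusted p = 0.0235).

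The deubiquitinase that removes ubiquitin from FANCD2 consists of the protease USP1 and its activating partner WDR48 (UAF1), and their mRNAs moved in opposite directions in KO2. USP1 was at 139.7, 155 and 146 CPM in KO1, 160.1, 169 and 180.0 CPM in KO2 and 152, 148 and 156 CPM in WT. It rose by 0.16 ± 0.05 (adjusted p = 0.0171) in KO2, whose libraries lay above all WT libraries, and was -0.05 ± 0.05 (interval -0.16 to 0.06, adjusted p = 0.496) in KO1, which overlapped WT. The KO2 rise missed the threshold at 0.14 without WT replicate 2 (adjusted p = 0.0693), 0.15 without KO2 replicate 2 (adjusted p = 0.0513) and 0.11 without KO2 replicate 3 (adjusted p = 0.0957), and after removal of the GC trend KO1 was called lower, at -0.12 (adjusted p = 0.00368). WDR48 was at 58.3, 60.8 and 62.8 CPM in KO1, 44.9, 45.5 and 45.0 CPM in KO2 and 50.9, 49.8 and 53.3 CPM in WT. The KO1 libraries were the highest and the KO2 libraries the lowest, without overlap. WDR48 rose by 0.24 ± 0.05 (adjusted p = 0.0011) in KO1, or 0.16 after removal of the GC trend, and fell by 0.18 ± 0.05 (adjusted p = 0.00484) in KO2, and KO1 exceeded KO2 by 0.43 ± 0.05 (adjusted p = 2.15e-06). In KO2, FANCD2, FANCI and WDR48 were thus lower and UBE2T and USP1 higher than WT.

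**Figure D2:**
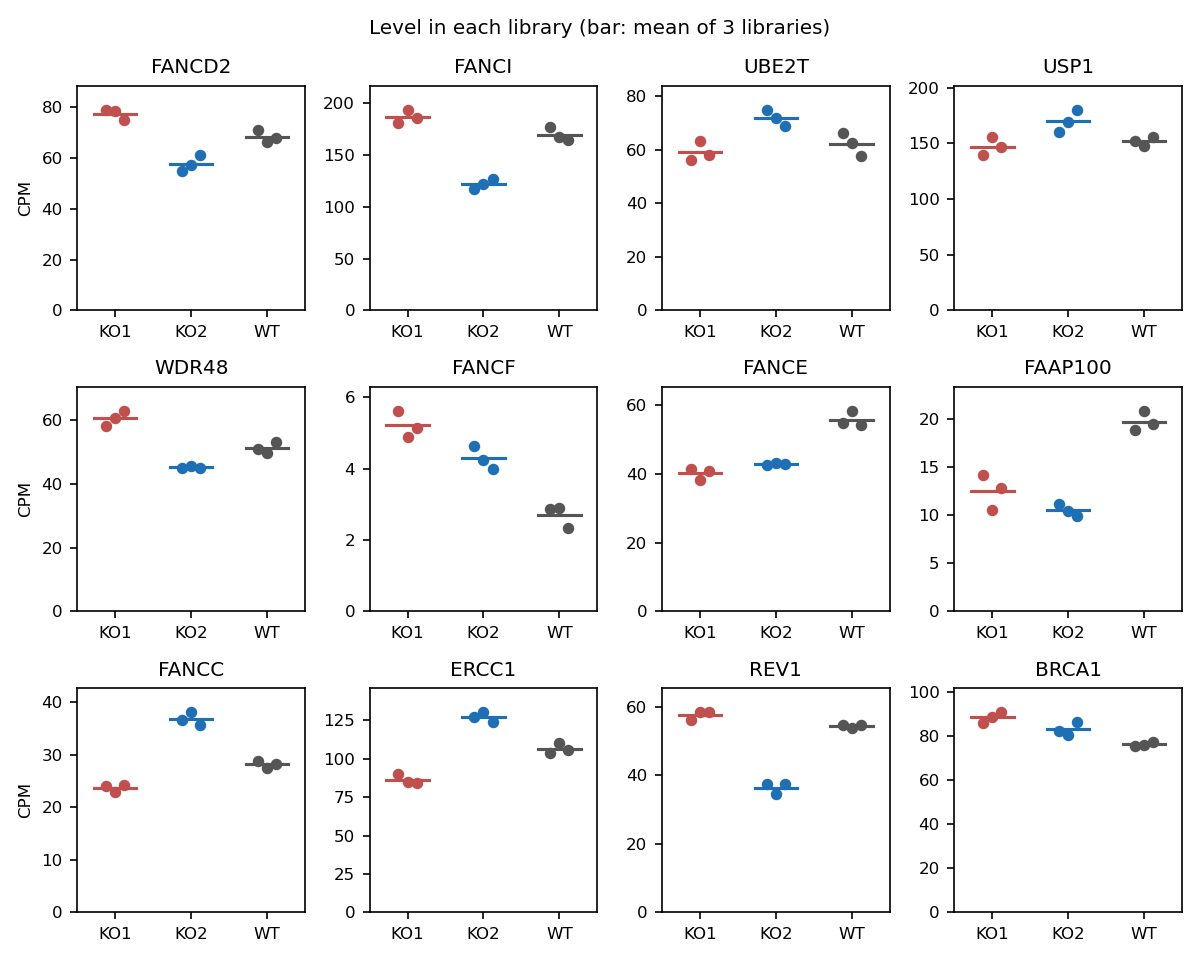
Level in CPM (vertical axes, from 0) of 12 genes in each of the 9 libraries, with points for libraries and bars for the mean of 3. FANCD2, FANCI and WDR48 are highest in KO1 and lowest in KO2, FANCC and ERCC1 are highest in KO2 and lowest in KO1, and every WT library of FANCF lies below the knockout libraries.

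FANCF and FAAP100 of the core complex had the greatest rise and fall of the set against WT in both clones, but once the GC trend was removed the greatest falls were those of FANCM in KO1 (-0.44) and REV1 in KO2 (-0.62). In KO1, 1 of the 11 core genes rose and 7 fell (median -0.25), where 18.0% of all tested genes rose and 16.8% fell. In KO2, 2 of the 11 rose and 5 fell (median -0.05), where 24.7% of all tested genes rose and 24.7% fell. With the GC trend removed 2 rose and 4 fell in KO1, where 39.1% of all tested genes were called, and 3 rose and 4 fell in KO2, where 54.6% were. FANCF, an adaptor of the core complex whose silencing is known from sporadic tumours, was at 5.62, 4.90 and 5.15 CPM in KO1, 4.65, 4.25 and 3.99 CPM in KO2 and 2.87, 2.91 and 2.34 CPM in WT. Every knockout library was above every WT library. FANCF rose by 0.94 ± 0.12 (adjusted p = 1.73e-05) in KO1 and by 0.66 ± 0.12 (adjusted p = 0.000256) in KO2, at counts as low as 147, and by 0.90 and 0.62 after removal of the GC trend. Exons of FANCF overlap those of GAS2, on the opposite strand, over 11.28% of their bases. GAS2 averaged 0.450 CPM in KO1, 0.297 CPM in KO2 and 0.235 CPM in WT. FAAP100, which holds FANCL and FANCB together in the catalytic module, was at 14.1, 10.5 and 12.9 CPM in KO1, 11.1, 10.4 and 9.95 CPM in KO2 and 18.9, 20.8 and 19.5 CPM in WT. Every knockout library was below every WT library. FAAP100 fell by 0.66 ± 0.09 (adjusted p = 7.74e-05) in KO1 and by 0.91 ± 0.10 (adjusted p = 1.47e-06) in KO2. KO1 exceeded KO2 by 0.25 ± 0.10 (adjusted p = 0.041) with overlapping libraries. This difference was lost at 0.22 with upper quartile scaling (adjusted p = 0.0657), 0.24 among genes of at least 1 CPM in 3 libraries (adjusted p = 0.0631) and 0.27 with only the clones in the fit (adjusted p = 0.0611). It was also lost at 0.17 without KO1 replicate 1 (adjusted p = 0.157), 0.24 without KO1 replicate 3 (adjusted p = 0.0963), 0.26 without KO2 replicate 2 (adjusted p = 0.0837) and 0.22 without KO2 replicate 3 (adjusted p = 0.133), and at 0.13 after removal of the GC trend (adjusted p = 0.117). Its exons are 65.8% GC, the highest of the 33, and after removal of the GC trend its changes were -0.31 (adjusted p = 0.00107) and -0.44 (adjusted p = 1.71e-05). FANCE, the subunit that contacts FANCD2, was at 41.3, 38.1 and 40.8 CPM in KO1, 42.4, 43.1 and 42.7 CPM in KO2 and 54.6, 58.2 and 54.1 CPM in WT, again without overlap between knockout and WT libraries. It fell by 0.47 ± 0.05 (adjusted p = 4.44e-06) in KO1 and by 0.38 ± 0.05 (adjusted p = 1.49e-05) in KO2, or by 0.31 and 0.21 after removal of the GC trend, both still called.

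FANCA, the subunit most often mutated in Fanconi anaemia, was at 49.0, 43.6 and 46.6 CPM in KO1, 40.2, 41.3 and 41.3 CPM in KO2 and 52.6, 53.3 and 52.5 CPM in WT. The WT libraries were the highest and the KO2 libraries the lowest. FANCA fell by 0.18 ± 0.05 (adjusted p = 0.0104) in KO1 and by 0.37 ± 0.05 (adjusted p = 2.48e-05) in KO2. Its KO1 call was lost at -0.17 without WT replicate 2 (adjusted p = 0.0511) and at -0.08 after removal of the GC trend (adjusted p = 0.109). Exons of FANCA overlap those of ZNF276, on the opposite strand, over 23.6% of their bases. FAAP20, which binds FANCA and ubiquitin, was at 9.19, 6.80 and 7.83 CPM in KO1, 8.78, 8.83 and 6.89 CPM in KO2 and 10.2, 11.2 and 9.80 CPM in WT. The knockout libraries lay below the WT libraries, by a margin smaller than the spread within KO1. FAAP20 fell by 0.39 ± 0.12 (adjusted p = 0.0188) in KO1 and by 0.35 ± 0.12 (adjusted p = 0.0244) in KO2, but neither call held after removal of the GC trend, at -0.15 (adjusted p = 0.133) and -0.06 (adjusted p = 0.552). The KO1 call was also lost at -0.32 without WT replicate 2 (adjusted p = 0.0868), -0.28 without KO1 replicate 2 (adjusted p = 0.0673) and -0.37 without KO1 replicate 3 (adjusted p = 0.0701), and the KO2 call at -0.29 without WT replicate 2 (adjusted p = 0.0894) and -0.24 without KO2 replicate 3 (adjusted p = 0.112).

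FANCC, which forms a module with FANCE and FANCF, was lower than WT in KO1 and higher in KO2. FANCC was at 24.0, 22.9 and 24.3 CPM in KO1, 36.5, 38.1 and 35.6 CPM in KO2 and 28.8, 27.4 and 28.3 CPM in WT, and no groups overlapped. FANCC fell by 0.25 ± 0.05 (adjusted p = 0.00234) in KO1 and rose by 0.38 ± 0.05 (adjusted p = 2.57e-05) in KO2, and the difference between the clones was -0.63 ± 0.05 (adjusted p = 1.01e-07). FANCG, a scaffold subunit beside FANCA, was at 73.4, 69.9 and 70.5 CPM in KO1, 88.0, 86.9 and 83.0 CPM in KO2 and 82.3, 88.3 and 83.1 CPM in WT, lowest in KO1, with KO2 and WT overlapping. It fell by 0.25 ± 0.05 (adjusted p = 0.000685) in KO1 and was 0.02 ± 0.05 (interval -0.07 to 0.12, adjusted p = 0.696) in KO2. After removal of the GC trend these were -0.08 (adjusted p = 0.101) and 0.20 (adjusted p = 7.21e-05), so that the KO1 call was lost and a KO2 rise called. FANCM, the DNA translocase that recruits the core complex, was at 13.7, 16.4 and 15.1 CPM in KO1, 18.8, 18.6 and 19.97 CPM in KO2 and 19.8, 19.5 and 18.4 CPM in WT. The KO1 libraries were the lowest, and KO2 overlapped WT. FANCM fell by 0.35 ± 0.07 (adjusted p = 0.00185) in KO1, and KO2 was at -0.01 ± 0.07 (interval -0.17 to 0.15, adjusted p = 0.941).

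FANCB, an X-linked subunit of the catalytic module, was at 8.83, 11.1 and 9.38 CPM in KO1, 7.16, 7.50 and 7.92 CPM in KO2 and 9.77, 8.97 and 9.30 CPM in WT. Its KO2 libraries were the lowest, and it fell by 0.31 ± 0.09 (adjusted p = 0.0121) in KO2, a call lost at -0.28 without WT replicate 1 (adjusted p = 0.052), while KO1 overlapped WT at 0.06 ± 0.09 (interval -0.14 to 0.26, adjusted p = 0.646). FAAP24, the partner of FANCM in DNA binding, was at 11.6, 12.0 and 11.7 CPM in KO1, 10.7, 8.95 and 9.64 CPM in KO2 and 9.70, 9.51 and 11.1 CPM in WT. The KO1 libraries lay above the other 6, yet KO1 was at 0.22 ± 0.09 (interval 0.04 to 0.40, adjusted p = 0.0585) against WT, and 0.24 with adjusted p = 0.0174 after removal of the GC trend. KO1 exceeded KO2 by 0.27 ± 0.09 (adjusted p = 0.0157), a difference lost at 0.22 without KO2 replicate 2 (adjusted p = 0.0722). FANCL, the RING subunit that catalyses the ubiquitination, was at 32.2, 32.7 and 32.5 CPM in KO1, 30.3, 29.5 and 28.0 CPM in KO2 and 31.6, 28.6 and 28.9 CPM in WT. KO1 lay above the other groups by a narrow gap, and KO2 overlapped WT. Exons of FANCL overlap those of VRK2, on the opposite strand, over 18.7% of their bases. The clones differed by 0.15 ± 0.06 (adjusted p = 0.0383), and neither passed the threshold against WT, at 0.13 (adjusted p = 0.0952) in KO1 and -0.02 (adjusted p = 0.759) in KO2. That difference was lost at 0.12 with upper quartile scaling (adjusted p = 0.11) and 0.14 among genes of at least 1 CPM in 3 libraries (adjusted p = 0.0524), at 0.16 without KO1 replicate 3 (adjusted p = 0.0776), 0.16 without KO2 replicate 2 (adjusted p = 0.0642) and 0.12 without KO2 replicate 3 (adjusted p = 0.134) and at 0.11 after removal of the GC trend (adjusted p = 0.0797).

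Of the genes of crosslink sensing and RPA clearance, UHRF1, which binds crosslinked and hemimethylated DNA, was at 79.0, 64.4 and 70.7 CPM in KO1, 88.8, 96.3 and 80.8 CPM in KO2 and 87.2, 105 and 90.7 CPM in WT. The KO1 libraries lay below all others, and KO2 overlapped WT. UHRF1 fell by 0.40 ± 0.09 (adjusted p = 0.00845) in KO1 and was -0.09 ± 0.09 (interval -0.30 to 0.12, adjusted p = 0.476) in KO2. The clones differed by -0.31 ± 0.09 (adjusted p = 0.0197), a difference lost at -0.23 without KO1 replicate 2 (adjusted p = 0.0763), -0.29 without KO1 replicate 3 (adjusted p = 0.0578), -0.30 without KO2 replicate 1 (adjusted p = 0.054) and -0.24 without KO2 replicate 2 (adjusted p = 0.0634). RFWD3, a ubiquitin ligase that removes RPA from damage sites, ranged from 161 to 179 CPM over the 9 libraries. It was called in neither clone, at 0.02 ± 0.04 (interval -0.06 to 0.10, adjusted p = 0.731) in KO1 and -0.07 ± 0.04 (interval -0.15 to 0.01, adjusted p = 0.156) in KO2, and in KO2 was at -0.10 with adjusted p = 0.00605 after removal of the GC trend.

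Among the 6 nuclease genes, 0 rose and 2 fell in KO1, and 2 rose and 1 fell in KO2. These counts are near the 34.8% of all tested genes called in KO1 and the 49.4% called in KO2. With the GC trend removed 1 rose and 2 fell in KO1 (39.1% of all tested genes called), and 2 rose and 1 fell in KO2 (54.6%). ERCC1 and ERCC4 (XPF) form the endonuclease that cuts beside a crosslink. ERCC1 was at 90.0, 84.6 and 84.2 CPM in KO1, 127, 130.3 and 124 CPM in KO2 and 104, 109.9 and 106 CPM in WT. The KO2 libraries were the highest and the KO1 libraries the lowest, without overlap. ERCC1 fell by 0.30 ± 0.04 (adjusted p = 8.77e-05) in KO1, or 0.18 after removal of the GC trend, and rose by 0.26 ± 0.04 (adjusted p = 0.000182) in KO2. Its exons overlap those of CD3EAP, on the opposite strand, over 28.6% of their bases, and CD3EAP averaged 28.6 CPM in KO1, 20.4 CPM in KO2 and 27.8 CPM in WT. ERCC4 was at 11.7, 11.3 and 12.0 CPM in KO1, 14.5, 15.3 and 14.4 CPM in KO2 and 10.9, 11.02 and 11.8 CPM in WT. The KO2 libraries lay above the other 6, and KO1 overlapped WT. ERCC4 rose by 0.39 ± 0.07 (adjusted p = 0.000263) in KO2 and was 0.05 ± 0.07 (interval -0.09 to 0.20, adjusted p = 0.581) in KO1. Thus both subunits were higher in KO2 than in WT, and ERCC1 was lower in KO1.

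FAN1, a nuclease recruited by ubiquitinated FANCD2, was at 10.2, 10.5 and 10.6 CPM in KO1, 9.20, 6.95 and 8.20 CPM in KO2 and 9.43, 9.95 and 10.7 CPM in WT, lowest in KO2. It fell by 0.31 ± 0.10 (adjusted p = 0.0168) in KO2 and was 0.06 ± 0.10 (interval -0.14 to 0.26, adjusted p = 0.658) in KO1, and the KO2 call was lost at -0.26 without WT replicate 3 (adjusted p = 0.0769) and -0.21 without KO2 replicate 2 (adjusted p = 0.0867). Exons of FAN1 share 24.3% of their bases with MTMR10, on the opposite strand, which averaged 20.7 CPM in KO1, 10.3 CPM in KO2 and 14.4 CPM in WT. DCLRE1A (SNM1A), an exonuclease that digests past a crosslink, was at 46.7, 53.3 and 50.5 CPM in KO1, 62.5, 59.2 and 63.0 CPM in KO2 and 58.7, 56.6 and 60.6 CPM in WT. The KO1 libraries lay below the others. DCLRE1A fell by 0.23 ± 0.05 (adjusted p = 0.00465) in KO1, and KO2 was at 0.07 ± 0.05 (interval -0.05 to 0.19, adjusted p = 0.308). DCLRE1B (Apollo), its relative at telomeres, was at 49.1, 51.1 and 51.8 CPM in KO1, 57.0, 56.4 and 52.4 CPM in KO2 and 50.8, 52.2 and 52.7 CPM in WT. WT overlapped both clones, with -0.03 in KO1 and 0.09 in KO2, neither called. The clones differed by -0.12 ± 0.05 (adjusted p = 0.0445), but this was lost in 8 of 9 fits that left out a library, at -0.11 without WT replicate 1 (adjusted p = 0.0853), -0.11 without WT replicate 2 (adjusted p = 0.0896), -0.11 without WT replicate 3 (adjusted p = 0.0919), -0.09 without KO1 replicate 1 (adjusted p = 0.185), -0.12 without KO1 replicate 2 (adjusted p = 0.0719), -0.13 without KO1 replicate 3 (adjusted p = 0.0917), -0.09 without KO2 replicate 1 (adjusted p = 0.211) and -0.10 without KO2 replicate 2 (adjusted p = 0.173). It was also lost at -0.12 with RLE size factors (adjusted p = 0.0566), -0.10 with no low-count filter (adjusted p = 0.19), -0.12 in DESeq2 (adjusted p = 0.06) and -0.11 with only the clones in the fit (adjusted p = 0.099). SLX4, a scaffold protein for nucleases, ranged from 15.4 to 18.5 CPM and was called in neither clone, at 0.00 ± 0.07 (interval -0.15 to 0.14, adjusted p = 0.97) in KO1 and -0.15 ± 0.07 (interval -0.30 to 0.00, adjusted p = 0.0969) in KO2. With the GC trend removed its KO1 value was 0.15 and passed the threshold (adjusted p = 0.0281).

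In the homologous recombination arm 1 of 6 genes rose and 0 fell in KO1, and 3 rose and 2 fell in KO2. Of all tested genes 34.8% were called in KO1 and 49.4% in KO2. With the GC trend removed 1 of the 6 rose and 3 fell in KO1 (39.1% of all tested genes called), and 3 rose and 2 fell in KO2 (54.6%). BRCA1, which promotes resection and recruits PALB2, was at 85.9, 88.8 and 90.8 CPM in KO1, 82.4, 80.6 and 86.4 CPM in KO2 and 75.2, 76.0 and 77.2 CPM in WT. All knockout libraries lay above the WT libraries, and KO1 overlapped KO2. BRCA1 rose by 0.22 ± 0.04 (adjusted p = 0.00131) in KO1 and by 0.13 ± 0.04 (adjusted p = 0.0257) in KO2. The KO2 call was lost at 0.12 without WT replicate 1 (adjusted p = 0.0745), 0.12 without WT replicate 2 (adjusted p = 0.0699), 0.12 without KO2 replicate 1 (adjusted p = 0.0716) and 0.09 without KO2 replicate 3 (adjusted p = 0.114), and at 0.12 with no low-count filter (adjusted p = 0.0944). BRCA2, a central mediator of homologous recombination, was at 46.0, 51.6 and 50.4 CPM in KO1, 55.9, 57.0 and 63.6 CPM in KO2 and 45.1, 44.2 and 49.1 CPM in WT. The KO2 libraries lay above the other 6, and KO1 overlapped WT. BRCA2 rose by 0.35 ± 0.06 (adjusted p = 0.000257) in KO2 and was 0.10 ± 0.06 (interval -0.04 to 0.23, adjusted p = 0.249) in KO1. PALB2, the bridge between BRCA1 and BRCA2, ranged from 23.8 to 27.3 CPM. It was not called, at 0.09 ± 0.05 (interval -0.02 to 0.21, adjusted p = 0.209) in KO1 and 0.11 ± 0.06 (interval -0.01 to 0.23, adjusted p = 0.115) in KO2, although all 6 knockout libraries lay above the WT libraries.

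BRIP1 and XRCC2 were lower in KO2. BRIP1 (FANCJ), a helicase that binds BRCA1, was at 61.7, 69.2 and 63.6 CPM in KO1, 51.0, 48.1 and 53.6 CPM in KO2 and 69.0, 64.2 and 68.4 CPM in WT. The KO2 libraries lay below all others, and KO1 overlapped WT. BRIP1 fell by 0.40 ± 0.06 (adjusted p = 2.71e-05) in KO2 and was -0.05 ± 0.06 (interval -0.17 to 0.07, adjusted p = 0.506) in KO1. XRCC2, a mediator of homologous recombination, was at 35.2, 37.8 and 36.8 CPM in KO1, 31.3, 28.0 and 31.9 CPM in KO2 and 41.4, 40.7 and 39.7 CPM in WT, lowest in KO2 and next lowest in KO1, with no overlap among groups. It fell by 0.42 ± 0.06 (adjusted p = 2.51e-05) in KO2, and KO1 was at -0.15 ± 0.06 (interval -0.27 to -0.03, adjusted p = 0.0559). Once the GC trend was removed both were also called in KO1, BRIP1 at -0.15 (adjusted p = 0.00157) and XRCC2 at -0.23 (adjusted p = 0.000199). RAD51C, which forms complexes with XRCC2 and other mediators, was at 31.2, 32.8 and 30.6 CPM in KO1, 36.5, 38.0 and 36.7 CPM in KO2 and 33.6, 32.3 and 32.2 CPM in WT. It rose by 0.18 ± 0.05 (adjusted p = 0.00906) in KO2, above all other libraries, a call lost at 0.16 without KO2 replicate 2 (adjusted p = 0.0507). In KO1, which overlapped WT, it was -0.05 ± 0.05 (interval -0.16 to 0.06, adjusted p = 0.469), and -0.11 (adjusted p = 0.0378) after removal of the GC trend.

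REV1, REV3L and MAD2L2 encode the translesion machinery that copies past an unhooked crosslink. REV1, which inserts C opposite lesions and recruits other bypass polymerases, was at 56.2, 58.4 and 58.4 CPM in KO1, 37.3, 34.5 and 37.4 CPM in KO2 and 54.7, 53.7 and 54.6 CPM in WT. The KO2 libraries lay far below the other 6, and KO1 lay just above WT. REV1 fell by 0.58 ± 0.05 (adjusted p = 1.23e-07) in KO2 and was 0.09 ± 0.05 (interval -0.02 to 0.19, adjusted p = 0.18) in KO1, and the clones differed by 0.66 ± 0.05 (adjusted p = 1.71e-08), the greatest difference between clones in the set. Exons of REV1 share 10.97% of their bases with EIF5B, on the opposite strand, which averaged 342 CPM in KO1, 219.5 CPM in KO2 and 337 CPM in WT. REV3L, the catalytic subunit of DNA polymerase zeta, ranged from 32.2 to 37.2 CPM and was called in neither clone, at 0.05 ± 0.06 (interval -0.08 to 0.18, adjusted p = 0.574) in KO1 and -0.04 ± 0.06 (interval -0.17 to 0.09, adjusted p = 0.602) in KO2. MAD2L2 (REV7), the accessory subunit that links REV3L to REV1, was at 36.6, 29.3 and 30.8 CPM in KO1, 45.7, 47.5 and 43.6 CPM in KO2 and 38.9, 42.5 and 37.3 CPM in WT. KO2 lay highest and KO1 lowest, with narrow gaps to WT. MAD2L2 fell by 0.30 ± 0.08 (adjusted p = 0.00825) in KO1 and rose by 0.21 ± 0.08 (adjusted p = 0.0376) in KO2. Its exons are 63.4% GC, and after removal of the GC trend it was at 0.00 in KO1 (adjusted p = 0.994) and 0.59 in KO2 (adjusted p = 2.58e-09). The KO1 call was lost at -0.25 without KO1 replicate 3 (adjusted p = 0.0508), and the KO2 call at 0.20 without WT replicate 1 (adjusted p = 0.093), 0.17 without WT replicate 3 (adjusted p = 0.138), 0.20 without KO2 replicate 1 (adjusted p = 0.0973), 0.17 without KO2 replicate 2 (adjusted p = 0.137) and 0.23 without KO2 replicate 3 (adjusted p = 0.0537).

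The mean over both clones was also set against WT, with an error from the spread between libraries and not between clones. Of the 33 genes 15 were called, 4 up and 11 down, against 40.8% of all tested genes, 20.4% up and 20.4% down. The genes with a higher mean were FANCF (0.80), BRCA2 (0.22), ERCC4 (0.22) and BRCA1 (0.17). Those with the lowest mean were FAAP100 (-0.78), FANCE (-0.43), FAAP20 (-0.37), XRCC2 (-0.28) and FANCA (-0.28), followed by REV1, UHRF1, BRIP1, FANCM, FANCI and FANCG. Several of these means rest on 1 clone. REV1, BRIP1, XRCC2, ERCC4 and BRCA2 were called in KO2 and not in KO1, FANCG, FANCM and UHRF1 in KO1 and not in KO2, and FANCI was called higher in KO1 and lower in KO2. After removal of the GC trend 17 were called (45.4% of all tested genes), 6 up and 11 down. FANCG, at -0.11 without that removal, then stood at 0.06 (adjusted p = 0.113), and FAAP20 lost its call at -0.10 (adjusted p = 0.216). Newly called were MAD2L2 at 0.29, ERCC1 at 0.10, FANCB at -0.20 and DCLRE1A at -0.14. Without WT replicate 2, 7 of the 33 were called lower, since the calls of FANCG (-0.07), FANCM (-0.16), FAAP20 (-0.31) and UHRF1 (-0.16) were lost. The call of FANCG was also lost at -0.12 without WT replicate 1 (adjusted p = 0.062), -0.12 without WT replicate 3 (adjusted p = 0.0727), -0.10 without KO1 replicate 3 (adjusted p = 0.0946) and -0.12 without KO2 replicate 2 (adjusted p = 0.0505), that of FANCM at -0.15 without WT replicate 1 (adjusted p = 0.16), -0.20 without WT replicate 3 (adjusted p = 0.0528), -0.14 without KO1 replicate 1 (adjusted p = 0.0722), -0.17 without KO1 replicate 3 (adjusted p = 0.0709), -0.17 without KO2 replicate 1 (adjusted p = 0.0649) and -0.17 without KO2 replicate 2 (adjusted p = 0.0676), and that of UHRF1 at -0.27 without WT replicate 3 (adjusted p = 0.0575), -0.21 without KO1 replicate 2 (adjusted p = 0.0515), -0.23 without KO1 replicate 3 (adjusted p = 0.0651), -0.25 without KO2 replicate 1 (adjusted p = 0.0544) and -0.22 without KO2 replicate 3 (adjusted p = 0.0566). FANCG also lost its call at -0.09 with upper quartile scaling (adjusted p = 0.083) and -0.11 with no low-count filter (adjusted p = 0.0581), and FANCM at -0.16 with upper quartile scaling (adjusted p = 0.0621).

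Several of the larger changes were shared by the nearest expressed genes on the chromosome. For each gene the median change of 20 expressed protein-coding neighbours, 10 on each side (GENCODE release 29, GRCh38), was taken after removal of the GC trend. FANCA had 16 such neighbours and FAN1 18. The targeted gene FBXL12 had neighbours at -0.30 in KO1 and -0.58 in KO2, beside its own -1.04 and -1.73. In each clone 17 of its 20 neighbours were lower. FANCD2, on chromosome 3 at chr3:10026414-10101930, had neighbours with a median of 0.15 in KO1 and -0.39 in KO2, beside its own 0.13 and -0.29. In KO2, 19 of its 20 neighbours were lower. FANCI, at chr15:89243949-89317261, had neighbours at 0.18 and -0.47 beside its own 0.08 and -0.52, and again 19 of 20 were lower in KO2. REV1, at chr2:99400475-99490035, had neighbours at 0.02 in KO1 and -0.58 in KO2, beside its own 0.03 and -0.62. FANCC, at chr9:95099054-95426796, had neighbours at 0.01 in KO1, where it was at -0.23, and at 0.38 in KO2, where it was at 0.39. FANCE, at chr6:35452356-35467103, had neighbours at -0.33 and -0.25, beside its own -0.31 and -0.21, and all 20 neighbours of FANCM were lower in KO1 (median -0.27).

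FANCF, FAAP100, BRIP1 and MAD2L2 were among the genes that moved away from their neighbours. FANCF, at chr11:22622890-22625841, had neighbours at 0.02 and 0.12, far below its own 0.90 and 0.62. The neighbours of FAAP100 were at -0.05 and -0.01, those of BRIP1 in KO2 at 0.01, and those of MAD2L2 in KO2 at 0.07. Others also departed in KO2, such as ERCC1 at 0.37 and BRCA2 at 0.31, beside neighbours at 0.01 and -0.035. At least 15 neighbours lay on the same side as the gene for 5 of the 16 genes called in KO1, 8 of the 22 called in KO2 and 9 of the 25 that differed between the clones. In KO1 these were FANCE, FANCM, FANCD2, UHRF1 and DCLRE1A, and in KO2 FANCC, FANCE, FANCD2, FANCI, USP1, ERCC4, XRCC2 and REV1. Neighbours on the same side were not counted for the other tested genes, so whether these counts are unusual was not tested. Across the 33 genes Pearson's r between the change of a gene and the median of its neighbours was 0.389 in KO1 and 0.687 in KO2 (Spearman's rho 0.322 and 0.688). Over 9570 genes with enough neighbours it was 0.374 in KO1 and 0.471 in KO2, and all these values share the same libraries. Copy number was not measured, and its part in these changes was not tested.

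**Figure D3:**
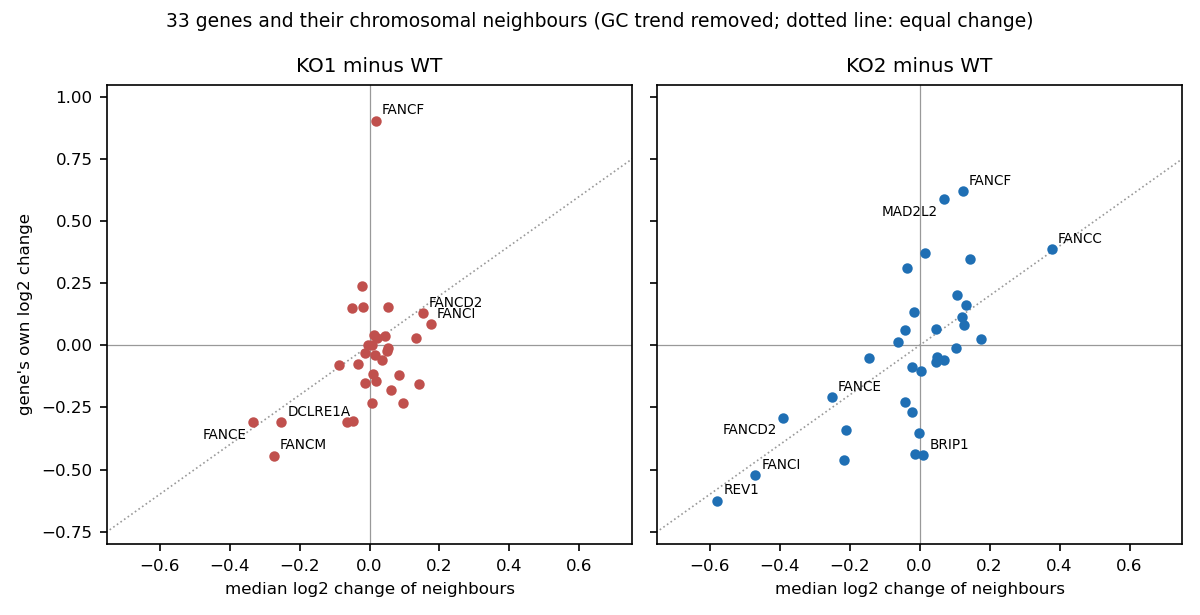
Log2 change of each of the 33 genes (vertical axis) against the median log2 change of its chromosomal neighbours (horizontal axis; 16 for FANCA, 18 for FAN1 and 20 for each other gene) in KO1 (left) and KO2 (right), both after removal of the GC trend, with a dotted line of equal change. In KO2, REV1, FANCI, FANCD2, FANCE and FANCC lie near the line, while FANCF, MAD2L2 and BRIP1 lie away from it.

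Levels per length (RPKM, CPM per kilobase of exon) allow a rough comparison of the genes with each other. The conjugating enzyme gene UBE2T was highest, at 35.8 ± 2.18 RPKM in KO1, 43.6 ± 1.79 RPKM in KO2 and 37.7 ± 2.59 RPKM in WT (SD, n = 3), followed by USP1 at 34.5 ± 1.85, 39.8 ± 2.34 and 35.7 ± 0.950 RPKM in the same groups. These neighbours in the order lay within their spread in KO1 and WT. In the WT order RFWD3, FANCG and FANCI came next, and FANCD2 stood in the middle at 9.24 ± 0.248 RPKM in KO1, 6.88 ± 0.368 RPKM in KO2 and 8.16 ± 0.294 RPKM in WT. The lowest in WT were FAAP20 at 0.727 ± 0.110 RPKM in KO1, 0.748 ± 0.101 RPKM in KO2 and 0.953 ± 0.0684 RPKM in WT, and FANCF at 1.77 ± 0.123 RPKM in KO1, 1.46 ± 0.113 RPKM in KO2 and 0.916 ± 0.108 RPKM in WT. Their WT RPKM did not differ beyond their spread, and in both clones FANCF was the higher of the 2. This order rests on the joined exons of all annotated transcripts, 10916 bases for FAAP20 and 2952 for FANCF. The lengths of the transcripts present were not measured. In mean CPM FAAP20 was the higher of the 2 in every group, at 7.94 against 5.22 in KO1, 8.17 against 4.30 in KO2 and 10.4 against 2.70 in WT. The median over the 33 genes was 7.55 RPKM in KO1, 6.11 RPKM in KO2 and 6.99 RPKM in WT.

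**Figure D4:**
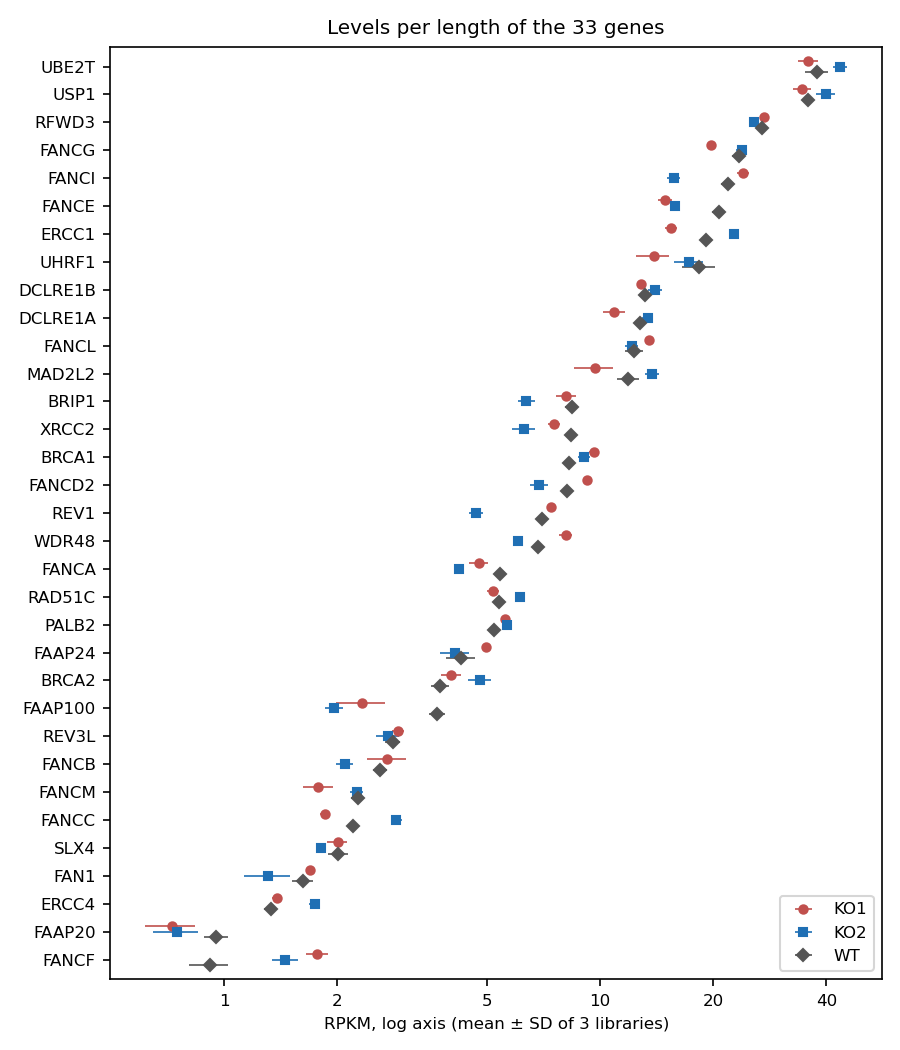
Mean RPKM (log axis, with the SD of 3 libraries) of the 33 genes in KO1, KO2 and WT, ordered by the WT level from top to bottom. UBE2T and USP1 are at the top in every group, and FANCF, lowest in WT, lies above FAAP20 in both clones.

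Other genes of crosslink and fork repair were followed through 6 lists, of which SLX1A, SLX1B, POLN, FANCD2OS and ALDH1A1 did not pass the low-count filter. The counts of each list stand beside 34.8% of all tested genes called in KO1 (18.0% up, 16.8% down) and 49.4% in KO2 (24.7% up, 24.7% down). Counts after removal of the GC trend stand beside 39.1% in KO1 and 54.6% in KO2. Among recombination partners, BARD1, the obligate partner of BRCA1, was at 29.2, 29.6 and 29.02 CPM in KO1, 55.4, 55.6 and 62.8 CPM in KO2 and 36.5, 33.9 and 38.3 CPM in WT, which is -0.31 ± 0.06 (adjusted p = 0.00116) in KO1 and 0.68 ± 0.06 (adjusted p = 2.6e-07) in KO2. The BARD1 groups did not overlap, and the clones stood on opposite sides of WT. XRCC3 and RAD51B, which act in homologous recombination, were at -0.93 and -0.15 in KO1, with RAD51B not called, and at -0.67 and 0.63 in KO2, and SWSAP1 was at -0.46 in KO1 and -1.24 in KO2. Once the GC trend was removed XRCC3 was at -0.63 in KO1 and -0.27 in KO2.

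Of 10 tested genes of fork anchoring, remodelling and junction dissolution 1 rose and 3 fell in KO1, and 2 rose and 5 fell in KO2. The helicase gene BLM was at 0.22 in KO1 and -0.48 in KO2, its cofactor gene RMI1 at 0.08 (not called) and 0.55, the topoisomerase gene TOP3A at -0.20 and -0.26, and the nuclease gene MUS81 at -0.25 and -0.65. Removal of the GC trend ended the KO1 call of MUS81, at -0.10, and brought TOP3A to -0.10 and -0.17. Of 5 signalling genes upstream of the pathway 2 rose and 2 fell in KO1, and 1 rose and 2 fell in KO2. With the GC trend removed 1 rose and 1 fell in KO1, and 2 rose and 2 fell in KO2. TELO2, which stabilises ATR and related kinases, was at -0.69 and -1.02, or -0.33 and -0.52 after that removal, and the ATR activator gene TOPBP1 rose by 0.17 and 0.14. CHEK1, the effector kinase of ATR, was at 0.13 and -0.14, both called, and ATRIP, the partner of ATR, fell by 0.29 in KO1 and was at 0.00 in KO2. After removal of the GC trend CHEK1 in KO1 (0.06) and ATRIP in KO1 (-0.11) were not called, and ATRIP was called at 0.19 in KO2.

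Of 7 tested genes of lesion bypass 0 rose and 1 fell in KO1, and 2 rose and 2 fell in KO2 (0 and 3 in KO1 and 2 and 3 in KO2 after removal of the GC trend). RAD18, the ligase that ubiquitinates PCNA at stalled forks, was at 127, 137 and 130.0 CPM in KO1, 73.1, 75.6 and 79.8 CPM in KO2 and 128, 122 and 125 CPM in WT. KO2 lay far below the other groups, and RAD18 fell by 0.71 ± 0.05 (adjusted p = 7.68e-09) in KO2. The bypass polymerase gene POLH fell by 0.52 ± 0.05 (adjusted p = 2.65e-06) in KO1, and POLK and HLTF, a polymerase and a fork remodeller, rose in KO2 by 0.32 and 0.24. Of 4 tested genes of replication-coupled alternatives 1 rose and 1 fell in KO1 (1 and 2 after removal of the GC trend), and 2 rose and 1 fell in KO2. NEIL3, a glycosylase that unhooks some crosslinks without the Fanconi pathway, was at 23.1, 24.2 and 23.7 CPM in KO1, 37.7, 38.5 and 38.7 CPM in KO2 and 25.7, 25.5 and 24.2 CPM in WT. It rose by 0.60 ± 0.05 (adjusted p = 1.8e-07) in KO2, above all other libraries, and TRAIP, the ligase upstream of that route, rose by 0.21 in KO2. MRE11, a nuclease of resection, was at 0.24 and -0.41, both called, and the exonuclease gene EXO1 fell by 0.26 in KO1.

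Aldehydes made by the cell are a source of crosslinks, and of 5 tested genes of aldehyde clearance 1 rose and 1 fell in KO1, and 4 rose and 0 fell in KO2. The KO1 count of 2 of 5 is near the 34.8% of all tested genes called there, and the KO2 count is above the 49.4%. ALDH2, which clears acetaldehyde in mitochondria, was at 9.24, 8.05 and 9.15 CPM in KO1, 22.6, 23.2 and 21.8 CPM in KO2 and 8.97, 9.06 and 9.96 CPM in WT. KO2 lay above all other libraries, and KO1 overlapped WT. ALDH2 rose by 1.27 ± 0.08 (adjusted p = 3.61e-09) in KO2 and was -0.08 ± 0.08 (interval -0.25 to 0.09, adjusted p = 0.457) in KO1. ALDH1A3 rose by 1.31 ± 0.09 (adjusted p = 3.68e-08) in KO1 and 0.41 ± 0.09 (adjusted p = 0.00126) in KO2, and ALDH9A1 rose by 0.29 in KO2.

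Many Fanconi genes peak with the cell cycle, so cycling genes are given beside them. Of 16 G1/S targets of E2F 1 rose and 6 fell in KO1 (2 and 6 after removal of the GC trend), and 5 rose and 3 fell in KO2 (4 and 3), with medians of -0.12 and -0.02. The 7 of 16 called in KO1 stand beside 34.8% of all tested genes, and the 8 of 16 called in KO2 are near the 49.4%. After removal of the GC trend 39.1% of all tested genes were called in KO1 and 54.6% in KO2. CCNE1, which encodes cyclin E, was at 0.11 (not called) in KO1 and 0.78 in KO2, E2F2 at -0.31 and 0.44, RRM2 at -0.05 (not called) and 0.24, MCM7 at -0.28 and -0.15, and CDT1 at -0.77 and -0.77. With the GC trend removed E2F2 in KO1 (-0.16) and MCM7 in KO2 (0.01) were not called, and CDT1 was at -0.43 and -0.34. Of 12 G2/M genes 1 rose and 2 fell in KO1, below the 34.8% of all tested genes called there, and 8 rose and 3 fell in KO2, above the 49.4%. Their median was 0.03 in KO1 and 0.20 in KO2. With the GC trend removed 2 rose and 4 fell in KO1, and 9 rose and 2 fell in KO2. The 6 of 12 then called in KO1 lay above the 39.1% of all tested genes called, no longer below the background. In KO2 the background was 54.6%. The proliferation marker gene MKI67 was at -0.11 (not called) in KO1 and 0.52 in KO2, TOP2A at 0.10 (not called) and 0.40, CCNB2 at 0.02 (not called) and -0.38, AURKA at 0.23 and -0.15, and AURKB at -0.42 and -0.16, where removal of the GC trend ended the KO2 call of AURKB (-0.06). The part of cell cycle distribution in the changes of the 33 genes was not tested.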

How the data were processed

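Gene counts came from RNA-seq of MDA-MB-231 cells, in 9 libraries, 3 each of KO1, KO2 and WT. The authors deposited raw counts per gene symbol for each library. Trim Galore and HISAT2 and the builds hg38, GRCm38 and mm10 are named in the submitters' processing notes without roles, and no source used here gives versions, counter, annotation or strand setting. The RNA had an integrity number of 10 in each sample, per the labels.

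Counts were joined by symbol, filtered (filterByExpr, leaving 17759 genes), scaled (TMM) and tested with edgeR 4.0.16 (R 4.3.3, limma 3.58.1), using the robust quasi-likelihood test on 1 fit with a mean per group. P-values were adjusted by Benjamini-Hochberg over all tested genes, and every adjusted p in the text comes from this test unless DESeq2 is named. Standard errors are the absolute log2 change divided by the square root of F. The common biological coefficient of variation was 7.46%. The steps were tested on simulated counts. Libraries of a group differed by more than sampling noise (5.848 to 28.67 in chi-square per degree of freedom), so none was counted as a repeat.

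CPM use TMM-scaled totals, and RPKM divide these by the union exon length in GENCODE 29 (GRCh38), which held 55842 of the 61155 symbols. At 3 counts, the limit that a count of 0 allows, CPM were 0.0309 in the deepest and 0.0572 in the shallowest library, for counting error only. For the GC correction a lowess trend (span 0.3) of log2 CPM on exon GC content was removed from each library through offsets, fitted where the mean log2 CPM reached 2. Alternatives were edgeR with DESeq2 size factors (RLE) or upper quartile scaling, no low-count filter, at least 1 CPM in 3 libraries, DESeq2 1.42.0, only the groups contrasted, the replicate number as a block, and each library left out.

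The 33 genes and the other lists were chosen with earlier results of these data known. Values per library are given for FANCD2, FANCI, USP1, WDR48 and each gene called alike in both clones or differing between them without overlap, and for BARD1, RAD18, NEIL3 and ALDH2 of the further lists, picked after their values were seen. From each further list, up to 3 genes with the smallest p for the mean of clones and up to 3 for the difference between clones are named. The counts of the list of recombination partners and 1 of its genes are not reported here.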

Additional observations from a re-analysis of the deposited data

Results flagged for a closer look

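The changes from WT differed between the clones for FBXL12 and 25 of the 33 genes, by edgeR's quasi-likelihood test of KO1 minus KO2, in which the shared WT libraries cancel. By the same test 48.9% of all tested genes differed between the clones. FBXL12 itself was 0.70 higher in KO1 on the log2 scale (adjusted p = 3.29e-06). After removal of the GC trend it was 0.69 higher, and 16 of its 20 chromosomal neighbours were also higher in KO1, with a median of 0.33.

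The genes higher in KO1 were REV1 (0.66), FANCI (0.61), WDR48 (0.43), FANCD2 (0.42), FANCB (0.37), FAN1 (0.37), BRIP1 (0.35), XRCC2 (0.27), FAAP24 (0.27), FAAP100 (0.25), FANCA (0.18) and FANCL (0.15).

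The genes lower in KO1 were FANCC (-0.63), ERCC1 (-0.56), MAD2L2 (-0.50), FANCM (-0.34), ERCC4 (-0.34), UHRF1 (-0.31), DCLRE1A (-0.29), UBE2T (-0.28), FANCG (-0.27), BRCA2 (-0.25), RAD51C (-0.23), USP1 (-0.21) and DCLRE1B (-0.12). FANCF was 0.28 higher in KO1 and missed the threshold (adjusted p = 0.0503).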

How the results depend on the processing

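Of 78 called values of the 33 genes over the 4 contrasts, 57 kept their call whichever library was left out and 21 lost it at least once. With 1 library left out, 13 to 17 of the 33 genes were called in KO1 (16 with all libraries), 18 to 22 in KO2 (22), 11 to 14 for the mean of clones (15) and 20 to 26 between the clones (25). No share of all tested genes is given here for these fits or for the replicate block below. A fall in these counts can therefore not be read as particular to the 33 genes. The count called lower for the mean of clones ran from 7, without WT replicate 2, to 10, against 11 with all libraries. Other scalings, other low-count filters, DESeq2 and a fit of only the groups contrasted ended 1 to 4 calls each, and that last fit gives no value for the mean of clones. Removal of the GC trend ended 9 calls, brought 17 and turned 5 values, these included. SLX4 in KO1 was then 0.15 (0.15 with the replicate block as well), MAD2L2 in KO1 0.0006 (0.0016), and for the mean of clones FANCG was 0.0624 (0.0623), ERCC1 0.0952 (0.0949) and MAD2L2 0.29 (0.30). With the replicate number as a block, 16 genes were called in KO1, 22 in KO2, 13 for the mean of clones and 24 between the clones. The numbers did not pair the libraries: deviations of the 9 same-numbered pairs correlated at -0.526 to 0.478, 3 of them over 0.1, and not every library correlated best with its own number. Libraries of unlike number correlated at up to 0.536, between KO1 replicate 1 and WT replicate 2. What such libraries of different groups shared was not modelled. The lowest count of the 33 genes, 147, was that of FANCF, whose call kept its side in KO1, KO2 and the mean of clones whichever library was left out.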
